A study of Mus musculus with 4 samples.

Results

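The 9 genes described here mark or regulate satellite cells, the stem cells that lie between a muscle fibre and its basal lamina. They were chosen by symbol: the transcription factor genes Pax3, Pax7 and Six4, the surface protein genes Megf10 and Cd82, the receptor genes Met, Cxcr4 and Calcr, and Spry1, which encodes an inhibitor of receptor tyrosine kinase signalling. The deposited peak lists name 7235 genes, and 7 of the 9 are among them. Calcr and Spry1 have no row in either list.

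The data are peaks of MyoD, the bHLH factor that commits cells to muscle, from ChIP-seq of mouse myotubes. The cells came from C57BL/6 mice, 2 weeks old, as primary myoblasts that spent 5 days in differentiation medium and a further 24 hours in that medium with pyruvate, or without it. Each condition had 1 MyoD ChIP library with 1 peak list, of 11907 peaks with pyruvate and 19338 without. Which list belongs to which condition rests on the sample titles, and file names can be read the other way. Without replicates no test was made, and the spread between libraries of 1 condition is not known. Depth is unknown, so a peak seen in 1 list may have been below detection in the other. All peak coordinates are in mouse build mm9 as deposited, and the lists give gene bodies and 2-kb flanks but no exons, so exonic and intronic peaks are not told apart.

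Satellite cells are held in quiescence, leave it after injury, and either renew themselves or become myoblasts that fuse. Pax7 is the transcription factor that maintains them in adult muscle, and Pax3 is its close relative in the embryonic somite and in some adult muscles. MyoD rises when the cells are activated, and as myoblasts differentiate Pax7 is lost. The surface proteins and receptors of the group are used to isolate these cells or receive signals from the niche. MyoD occupancy at a gene does not show whether the gene was expressed, and RNA was not analysed here.

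Peaks lay at all 7 muscle marker genes examined in the list with pyruvate and at 5 of them in the list without. Ckm and Myh3 had 0 peaks in the list without. Among all protein-coding genes of RefSeq, 17.8% had a peak with pyruvate and 24.5% without. At Myog, the gene of the differentiation factor myogenin, the peak was 529 bases wide with pyruvate and 351 bases without. At Chrna1, a subunit gene of the muscle acetylcholine receptor, the widest peak was 794 bases with pyruvate and 618 without. Of 5 fibroblast markers, 0 had a peak with pyruvate and 3 without; of 4 endothelial markers 3 did in each list, and of 4 macrophage markers 1 did with pyruvate and 2 without. These are counts of MyoD peaks and not of expression, so they do not show which cell types were present. Their part in the results was not tested.

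Of the 9 satellite cell genes, 5 had a peak in the list with pyruvate (Pax3, Pax7, Megf10, Cd82 and Met) and 7 had one in the list without, which added Six4 and Cxcr4. Among 21900 protein-coding genes of RefSeq, 17.8% had a peak with pyruvate and 24.5% without. Both lists held a peak at 5 of the 9, against 15.2% of protein-coding genes. A peak in the list with pyruvate alone was found at 0 of the 9, against 2.62%, and a peak in the list without pyruvate alone at 2, against 9.28%. When the list without pyruvate was shortened to its widest peaks, as many as the list with pyruvate has, 5 genes had a peak in each list, and Six4 and Cxcr4 had none. Of the 7235 genes that the files name, 55.1% had a peak in both lists, 9.95% with pyruvate alone and 35.0% without pyruvate alone. Long genes had peaks more often. Of RefSeq genes over 100 kb, 48.1% had one with pyruvate and 61.5% without. For genes of 20 to 100 kb these shares were 22.94% and 32.05%, and for genes under 20 kb 8.39% and 12.1%. Of the 7 genes with a row, Megf10, Met, Pax7 and Pax3 have bodies of 164.4, 110.2, 96.5 and 95.9 kb, Cd82 44.0 kb, Six4 14.4 kb and Cxcr4 4.09 kb, and the part of gene length in these counts was not tested.

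**Figure D1:**
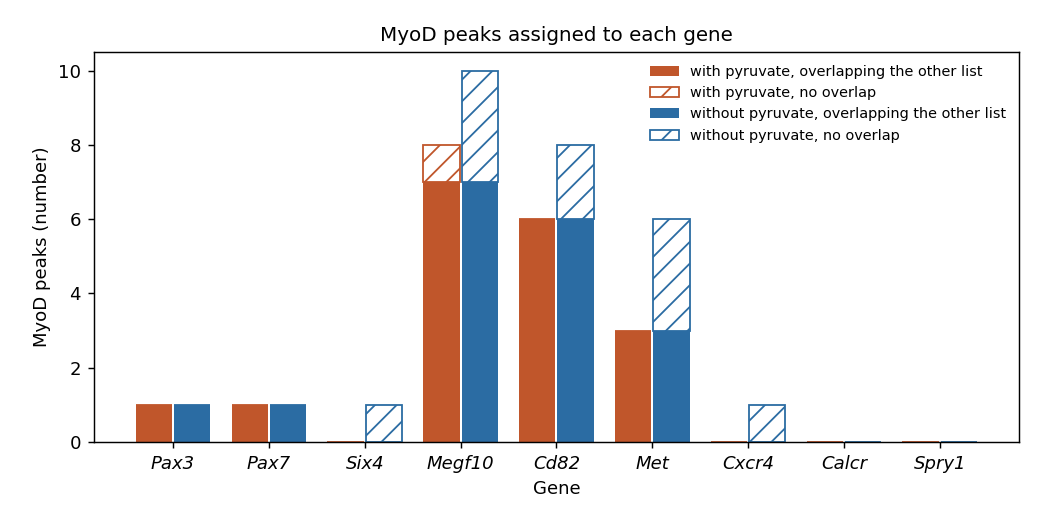
Number of MyoD peaks assigned to each of the 9 genes, with pyruvate (left bars) and without (right bars). Filled parts are peaks that overlap the other list by at least 1 base and hatched parts are peaks that do not; Megf10 had 8 peaks with pyruvate and 10 without, Cd82 had 6 with and 8 without, Met had 3 with and 6 without, and Calcr and Spry1 had none.

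Together the genes held 19 peaks with pyruvate and 28 without. Of the 19 with pyruvate, 18 overlapped a peak of the list without, or 94.7% (95% exact binomial interval 74.0 to 99.9). The same 18 positions were 64.3% of the 28 peaks without pyruvate (44.1 to 81.4). Among all peaks in gene regions, 71.5% of those with pyruvate and 46.9% of those without overlapped the other list. The intervals cover counting error only and treat peaks as independent, although Cd82 and Megf10 supplied 14 of the 19 peaks with pyruvate and 18 of the 28 without. Thus 1 peak was found in the list with pyruvate alone and 10 in the list without pyruvate alone. The list without pyruvate is the longer one. When it was shortened to its widest peaks, as many as the list with pyruvate has, the shares lay closer together. Then 89.5% of 19 peaks with pyruvate and 81.0% of 21 without overlapped the other list.

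Most of these peaks lay inside the genes and away from the start. The start of each gene was taken from its listed body, and other annotated starts, such as those of Cd82, were not considered. Of the peaks with pyruvate, 17 lay in the gene body more than 2000 bases from the start and 2 lay nearer. Without pyruvate these counts were 23 and 5. Counted by gene, 2 of the 9 had a peak within 2 kb of a start with pyruvate (Cd82 and Megf10) and 3 without (Cd82, Megf10 and Cxcr4). With pyruvate this count fell to 1 when peaks under 250 bases were left out, which removed the Megf10 peak of 221 bases, and to 1 with a window of 1 kb, which removed the Cd82 peak 1577 bases from its start. Among protein-coding genes 5.95% had one with pyruvate and 8.67% without, a count that also takes in flanks whose side the files do not show. Cd82 and Megf10 had one in both lists, against 4.55% of protein-coding genes; 0 genes had one with pyruvate alone, against 1.4%, and 1 without pyruvate alone, against 4.12%.

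**Figure D2:**
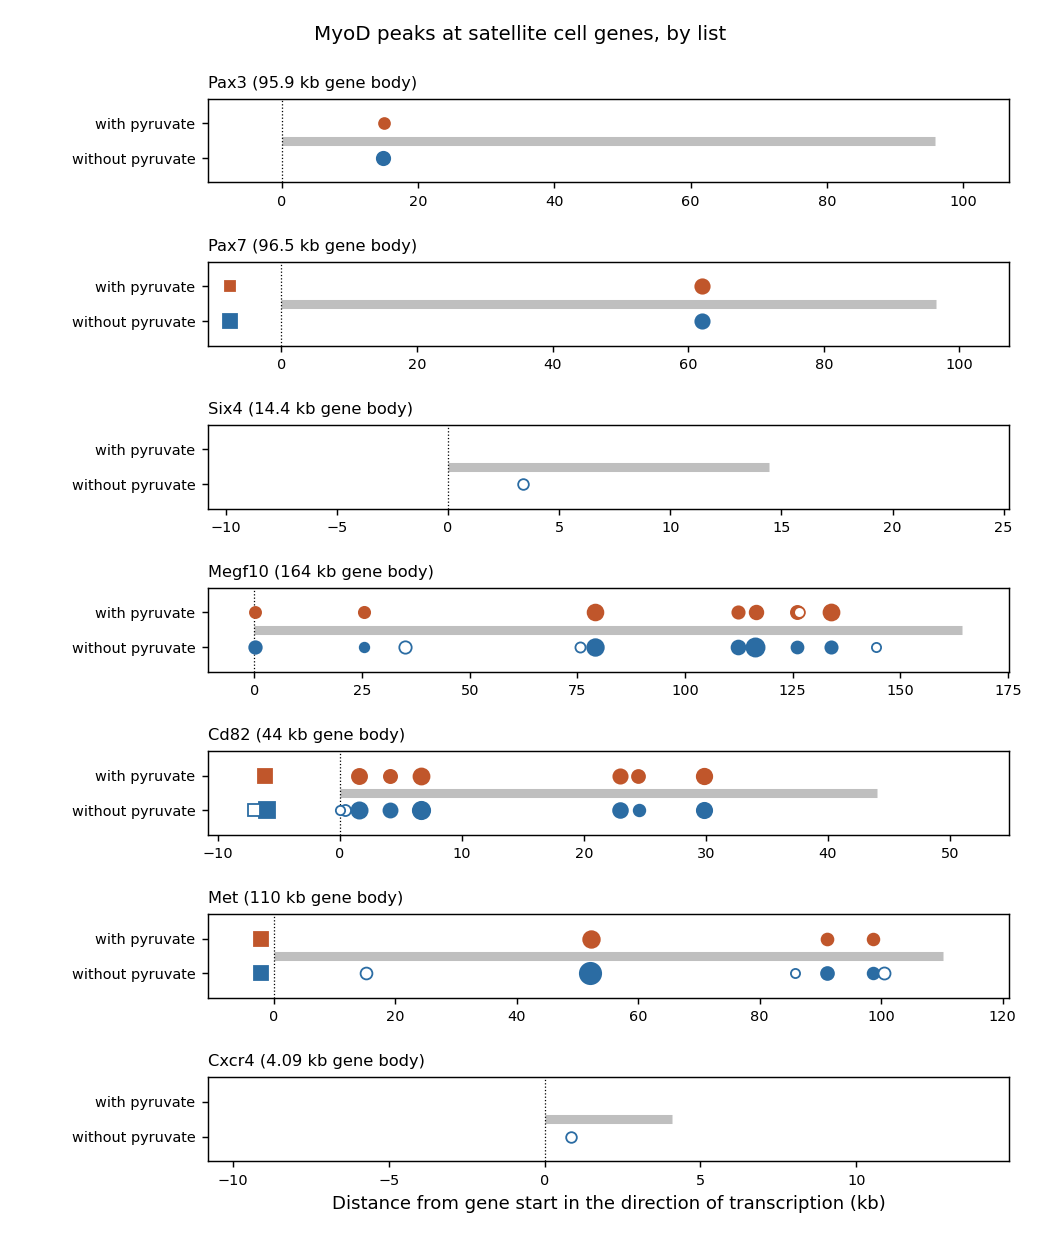
Position of MyoD peaks at the 7 genes with a row, as distance in kb from the gene start (dotted line) in the direction of transcription, with pyruvate in the upper track and without in the lower track of each panel. Circles are peaks assigned to the gene, squares are other peaks within 10 kb of its body (grey bar), filled symbols overlap the other list and open ones do not, and symbol size grows with peak width; the 6 Cd82 peaks and 7 of the Megf10 peaks stand at matching places in both tracks, whereas the single peaks of Six4 and Cxcr4 are in the lower track alone.

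The Pax genes each had 1 peak, at the same place in both lists. The peak in Pax7 was at chr4:139327009-139327357 with pyruvate (348 bases) and at chr4:139327009-139327355 without (346 bases), 62.1 kb into the gene. Its first base was the same in both lists and its last differed by 2 bases, and its width ranked at the 82.2 percentile with pyruvate and the 84.1 percentile without. The peak in Pax3 was at chr1:78178524-78178736 with pyruvate (212 bases) and at chr1:78178465-78178774 without (309 bases), 15.0 kb from the start with pyruvate and 14.9 kb without. It was narrower with pyruvate, at the 29.4 percentile against the 76.5 percentile without, and was lost from the list with pyruvate when peaks under 250 bases were left out. Neither gene had a peak within 2 kb of its start.

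The surroundings of the Pax genes differed. Pax7 had 5 further peaks within 50 kb of its body with pyruvate, all of them in both lists, and 6 without. Of these, 1 lay upstream, 7.5 kb from the start, 195 bases wide with pyruvate and 317 without. The other 4 shared peaks lay downstream of the gene, 17.8 to 47.0 kb past its end with pyruvate, and the widest pair of them was 243 bases with pyruvate and 549 without. The peak without pyruvate alone lay 13.9 kb past the end and was 180 bases wide. None of these peaks was assigned to a gene. Around Pax3 no further peak lay within 100 kb with pyruvate, and without pyruvate 2 lay downstream, 144 and 252 bases wide.

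Six4 encodes a homeobox factor that acts on muscle genes. Its single peak was in the list without pyruvate, at chr12:74211441-74211645, 204 bases wide and 3.4 kb from the start, and the nearest peak with pyruvate was 36643 bases away. Mnat1, a neighbour of Six4, which encodes an assembly factor of the CDK-activating kinase, held 7 peaks with pyruvate and 11 without.

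Megf10 encodes an EGF-repeat surface receptor of satellite cells whose loss causes an early-onset myopathy in humans. It held the most peaks of the group, 8 with pyruvate and 10 without. As many or more peaks were found at 62 of 4704 genes with any peak in the list with pyruvate (1.32%) and at 81 of 6515 in the list without (1.24%). Per 10 kb of gene body this was 0.487 peaks with pyruvate and 0.608 without. One peak stood 220 bases inside the start with pyruvate (chr18:57292964-57293185, 221 bases) and 177 bases inside it without (275 bases). The next shared peak lay 25.5 kb from the start, and the remaining 5 shared peaks lay 79.1 to 134.0 kb from it.

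The widest Megf10 peak was not the same in both lists. With pyruvate it was the one 133.9 kb from the start, at 409 bases, whose partner without pyruvate was 266 bases wide. Without pyruvate it was the one 116.4 kb from the start, at 493 bases, whose partner with pyruvate was 317 bases wide. A peak of 208 bases at chr18:57419206-57419414 was in the list with pyruvate, 242 bases from the nearest peak without, and was the only unmatched one of the 19. Peaks of 269, 182 and 146 bases, 34.9, 75.6 and 144.3 kb from the start, were in the list without pyruvate.

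Cd82 encodes a tetraspanin, a membrane-spanning organiser of surface complexes, which is used as a surface marker of human satellite cells. It had the densest peaks of the genes with more than 1 peak, with 1.36 per 10 kb of gene body with pyruvate and 1.59 without. All 6 peaks with pyruvate were matched without, and their centres differed by 3.5 to 38.0 bases. They fell in a group near the start, at 1.6, 4.1 and 6.6 kb with pyruvate (376, 301 and 411 bases wide), and a group further in, at 23.0, 24.4 and 29.8 kb (344, 293 and 389 bases). The partners without pyruvate were 419, 336 and 463 bases wide in the first group and 362, 239 and 384 bases in the second. All 6 peaks with pyruvate were wider than the median of their list, 250 bases, and 5 of the 6 partners were wider than the median of theirs, 241 bases.

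At the start of Cd82 itself the lists differed. The list without pyruvate held a peak of 218 bases at chr2:93302640-93302858, 439 bases inside the gene, and one of 151 bases at chr2:93303303-93303454, 6 bases upstream of the start, and the list with pyruvate held neither. The second was among the narrowest without pyruvate, at the 3.02 percentile. The first 3 peaks and both of these also lie in ENSMUSG00000075025, a gene for which the files give no symbol, at chr2:93292976-93310028 on the opposite strand, so peaks in this stretch cannot be given to 1 of the genes. A further peak upstream of Cd82, in that gene, was in both lists, 295 bases wide with pyruvate and 442 without.

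Promoter sequence was available for 7 of the 9 genes from RefSeq, in build GRCm38.p6, as the 250 bases before each annotated start. It was not available for Pax3 and Megf10. Since the peaks are in mm9, no peak was laid on these letters. The E-box, the motif CANNTG that bHLH dimers bind, reads the same class on both strands and is in capitals below; 2 forms that MyoD prefers are instances of it. The first of these is CAGCTG, which is its own reverse complement. The second is CAGGTG, which is read on the other strand as the letters CACCTG. Of 32851 promoter windows of this length, 66.2% held any E-box. The first of the preferred forms was in 13.0% of the windows. The second, on either strand, was in 17.2% of them. Shown first are windows of 2 of the 4 annotated starts of Cd82, since this gene's start in the files had a peak 6 bases away in the list without pyruvate. Which of the 4 is the start in the files was not determined. The outermost (chr2:93462951-93463200, minus strand) held no CANNTG, and another (chr2:93461852-93462101, minus strand) held CAGGTG 179 bases before its start. Shown for contrast are 1 of 2 starts of Calcr (chr6:3764714-3764963, minus strand) and the start of Spry1 (chr3:37639697-37639946, plus strand), the genes with no peak.
Cd82, outermost start: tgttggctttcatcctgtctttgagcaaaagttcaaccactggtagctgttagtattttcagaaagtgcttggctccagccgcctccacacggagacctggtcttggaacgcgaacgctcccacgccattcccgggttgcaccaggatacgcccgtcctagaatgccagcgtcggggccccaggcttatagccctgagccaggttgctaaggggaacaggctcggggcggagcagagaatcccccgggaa
Cd82, inner start: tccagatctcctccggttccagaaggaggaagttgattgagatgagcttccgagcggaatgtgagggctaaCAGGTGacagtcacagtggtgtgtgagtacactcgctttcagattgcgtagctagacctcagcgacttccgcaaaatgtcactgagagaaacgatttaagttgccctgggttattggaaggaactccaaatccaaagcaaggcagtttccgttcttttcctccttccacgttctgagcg
Calcr: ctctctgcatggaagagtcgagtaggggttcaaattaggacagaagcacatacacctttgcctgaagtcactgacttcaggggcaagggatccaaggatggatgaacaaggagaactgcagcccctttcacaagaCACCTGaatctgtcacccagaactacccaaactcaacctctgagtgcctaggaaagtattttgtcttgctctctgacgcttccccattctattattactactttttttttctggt
Spry1: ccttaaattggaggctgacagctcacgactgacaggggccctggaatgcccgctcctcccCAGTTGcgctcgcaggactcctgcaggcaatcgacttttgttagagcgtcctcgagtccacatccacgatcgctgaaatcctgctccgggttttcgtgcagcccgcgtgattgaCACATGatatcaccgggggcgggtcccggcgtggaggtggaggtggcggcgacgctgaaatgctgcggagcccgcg
The Calcr window held CACCTG 115 bases before the start. The Spry1 window held CAGTTG 190 bases before its start. It also held CACATG 76 bases before that start. The other Calcr start (chr6:3763624-3763873) held 0 E-boxes. Of the 4 Cd82 windows, 2 held CAGGTG, 179 and 236 bases before their starts, and 2 held 0 E-boxes. The windows of Cxcr4, Pax7 and Six4 held 0 E-boxes, and that of Met held CACGTG 126 bases before its start. None of the windows of the 7 genes held CAGCTG. A match is a description of these letters and not a site.

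Met encodes the receptor for hepatocyte growth factor, which activates satellite cells. It had 3 peaks with pyruvate, all matched, and 6 without. The widest pair lay 52.2 kb from the start with pyruvate and 52.1 kb without, at chr6:17466030-17466463 with pyruvate (433 bases) and chr6:17465942-17466559 without (617 bases). The width of 617 bases was at the 98.8 percentile of the list without pyruvate, and the difference of -184 bases was the largest of the 18 pairs. The other pairs lay near the end of the gene, 91.0 and 98.7 kb from the start, at 249 and 243 bases with pyruvate and 289 and 241 bases without. The 3 peaks seen without pyruvate alone were 248, 144 and 257 bases wide.

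A peak close to the start of Met is not in these counts, because the files assign it to no gene. It was in both lists, at chr6:17411529-17411828 with pyruvate (299 bases) and chr6:17411514-17411825 without (311 bases), and its nearer edge was 1972 and 1975 bases upstream of the start. It overlapped the 2 kb before the start by 28 bases with pyruvate and 25 without. Counting any peak within 2 kb of a located start, whether assigned or not, gave 3 genes with pyruvate and 4 without, with Met added in both.

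Cxcr4 encodes the receptor for the chemokine CXCL12, which guides migrating muscle progenitors. Its single peak was in the list without pyruvate, at chr1:130487820-130488023, 203 bases wide and 847 bases inside the start. The nearest peak with pyruvate was 23694 bases away. Past the end of the gene, 20.6 kb from it, both lists held a peak that the files assign to no gene, 268 bases wide with pyruvate and 482 without, and a further one 78.7 kb past the end was 661 bases wide with pyruvate and 646 without.

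Calcr encodes the calcitonin receptor, which keeps adult mouse satellite cells quiescent, and Spry1 supports their return to quiescence. With no row in either list, neither gene could be placed in mm9, and peaks at a distance were not examined. In the RefSeq gene order, the 2 protein-coding neighbours on either side of Calcr (Hepacam2, Vps50, Tfpi2 and Gngt1) also had no peak in either list. Of the 4 around Spry1, Ankrd50 had 1 peak in each list and Nudt6, Spata5 and Gm5148 had none.

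The files give a width but no usable strength for each peak, and a called width can also vary with depth, which was not tested. The median width of the peaks at these genes was 301 bases with pyruvate and 267.5 without, against 250 and 241 bases over all peaks. Of the 18 pairs, 7 were wider with pyruvate and 11 wider without, and the median of the width with pyruvate minus that without was -33.5 bases. In all 5329 pairs in gene regions 59.6% were wider without pyruvate, and the median difference was -18 bases, so the share among the 18 pairs, 61.1%, was close to that of all pairs. Centres of the 18 pairs differed by a median of 16 bases and at most 62.

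**Figure D3:**
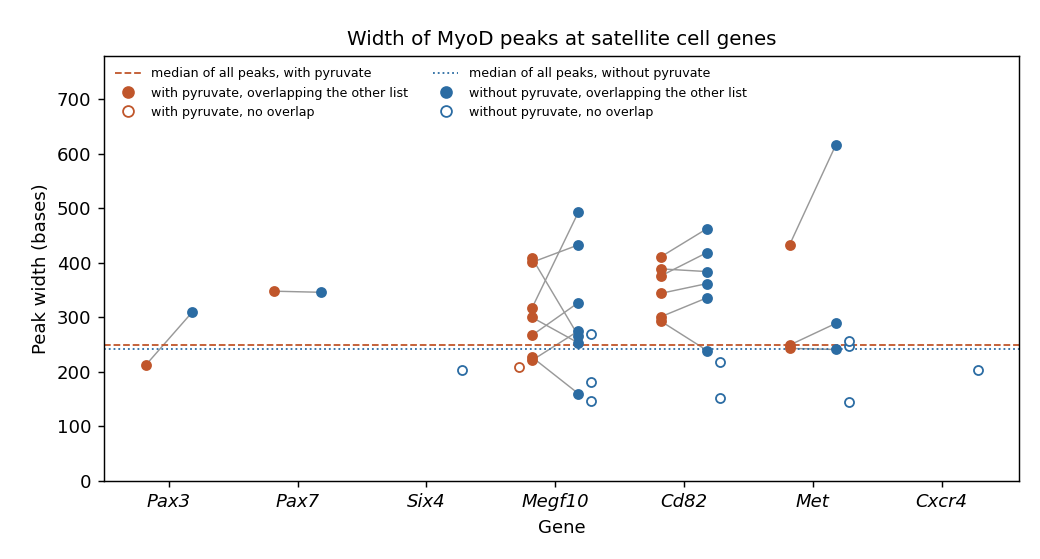
Width in bases of each MyoD peak at the 7 genes, with pyruvate on the left and without on the right of each gene. Lines join peaks that overlap, open circles have no overlap, and horizontal lines are the medians of all peaks (250 bases with pyruvate and 241 without); the widest peak without pyruvate, 617 bases in Met, joins one of 433 bases with pyruvate.

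Peaks in the list without pyruvate alone were narrow. The 10 had a median of 203.5 bases, from 144 to 269, while the 18 matched ones in that list had a median of 331.5, from 160 to 617. Over all peaks of that list the medians were 212 and 289 bases. Of the 10, 3 were wider than the median of their list.

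Genes that act with the 9 were described by 8 lists, 153 genes in all. Of these, 65 had a peak with pyruvate and 90 without, or 42.5% and 58.8%, against 17.8% and 24.5% of protein-coding genes. Both lists held a peak at 62, the list with pyruvate alone at 3 and the list without alone at 28, against 15.2%, 2.62% and 9.28% of protein-coding genes in the same order. Every one of the 8 lists had more genes with a peak without pyruvate than with, as did protein-coding genes as a whole. The 8 lists were chosen with earlier results of these data known. Long genes had peaks more often, and the part of gene length in these shares was not tested.

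**Figure D4:**
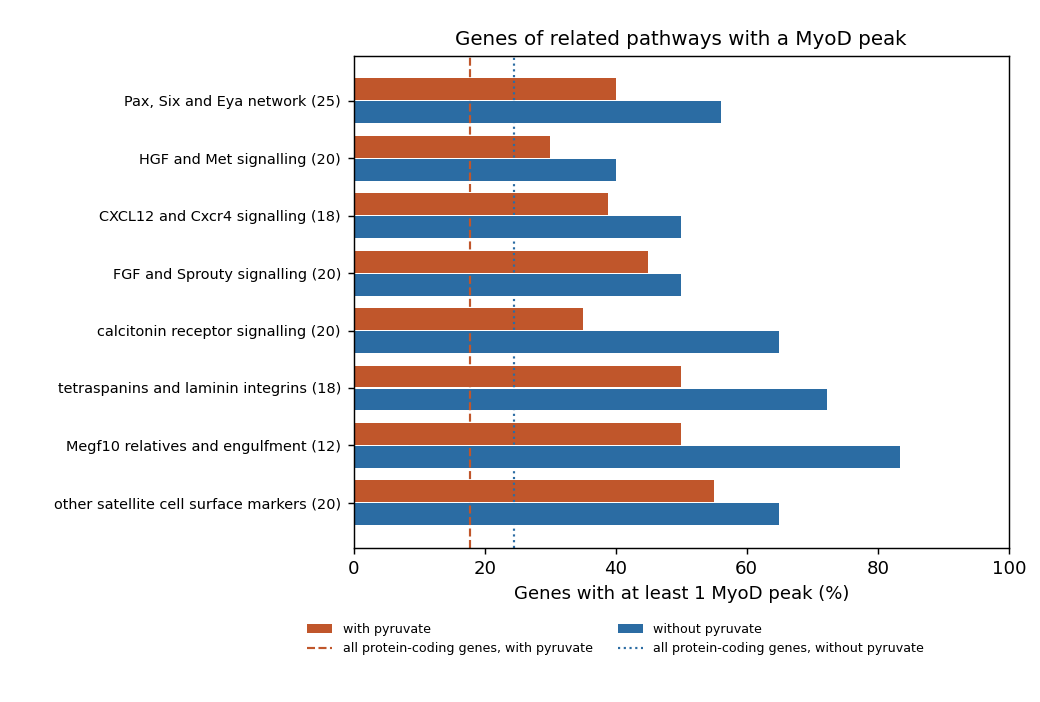
Share of genes in each of 8 lists (number of genes in brackets) with at least 1 MyoD peak, in percent, with pyruvate (upper bars) and without (lower bars). Vertical lines are the shares among all protein-coding genes, 17.8% with pyruvate and 24.5% without, and every bar lies beyond its line. Gene length was not taken into account.

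The network of Pax and Eya genes and partners of Six4 held 25 genes. Of these, 10 had a peak in both lists and 4 in the list without pyruvate alone, against 15.2% and 9.28% of protein-coding genes. Tead4 and Tead1, whose TEAD factors bind muscle promoters with Yap-type cofactors, had 6 and 11 peaks with pyruvate and 2 and 8 without. Eya4, which encodes a cofactor of Six4, had 3 peaks with pyruvate and 8 without. Eya3 and Kmt2d each had 1 peak in the list without pyruvate alone, 215 and 147 bases wide.

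Of the ligand genes Hgf, Cxcl12, Mif, Calca and Calcb in the gene lists for Met, Cxcr4 and Calcr, Hgf and Cxcl12 had peaks. Mif, which encodes another ligand of Cxcr4, and Calca and Calcb, which encode peptides of the calcitonin family, had 0 in both peak lists. Hgf, the ligand of Met, had 1 peak in both lists, 240 bases wide with pyruvate and 427 without. Cxcl12, the ligand of Cxcr4, also had 1 in both, 380 bases wide with pyruvate and 641 without. Rapgef1, an exchange factor downstream of Met, had 8 peaks with pyruvate and 6 without. In all, 6 of 20 HGF and Met genes and 6 of 18 CXCL12 and Cxcr4 genes had a peak in both lists, 0 and 1 in the list with pyruvate alone, and 2 and 3 in the list without pyruvate alone. Over all protein-coding genes these shares were 15.2% in both lists, 2.62% with pyruvate alone and 9.28% without pyruvate alone. The gene with pyruvate alone was Arrb2, a beta-arrestin gene, with a peak of 221 bases.

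Around Spry1, 9 of 20 FGF and Sprouty genes had a peak in both lists, against 15.2% of protein-coding genes. Fgfr2 had 27 peaks with pyruvate and 40 without. Fgfr4, a receptor gene expressed in muscle progenitors, had 1 peak near its start in both, 440 bases wide with pyruvate and 451 without. Frs2, an adaptor gene, had one in the list without pyruvate alone. Around Calcr, 7 of 20 genes had a peak in both lists and 6 in the list without pyruvate alone. Among protein-coding genes these shares were 15.2% and 9.28%. The accessory receptor genes Ramp3 and Ramp1 had peaks in both, at most 443 and 378 bases wide with pyruvate and 570 and 214 bases without. Col5a2 and Col5a3, chains of collagen V, which binds the calcitonin receptor in mouse satellite cells, had 0 peaks with pyruvate, and 1 and 2 peaks without.

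For the 3 gene lists that follow, the shares among protein-coding genes were 15.2% in both lists, 2.62% with pyruvate alone and 9.28% without pyruvate alone. Of 18 tetraspanin and laminin integrin genes, 8 had a peak in both lists, 1 with pyruvate alone and 5 without pyruvate alone. Tspan9 had 8 peaks with pyruvate and 11 without, and the tetraspanin gene Cd9 had 0 with pyruvate and 3 without. Of 12 relatives of Megf10 and engulfment genes, 6 had a peak in both lists, 0 with pyruvate alone and 4 without pyruvate alone. Gulp1, an engulfment adaptor gene, had 1 with pyruvate and 2 without, and Megf11, a relative of Megf10, had 1 with pyruvate and 3 without. Of 20 other surface markers, 10 had a peak in both lists, 1 with pyruvate alone and 3 without pyruvate alone. Ncam1 had 8 peaks in each list, the widest 424 bases with pyruvate and 708 without, and Cdh15, M-cadherin, had 4 in each, the widest 591 bases with pyruvate and 593 without. Il6st, which encodes the cytokine co-receptor gp130, had 1 peak of 341 bases with pyruvate and 0 without.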

How the data were processed

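MyoD was immunoprecipitated from myotubes of 2 conditions with the antibody SC-760, and each ChIP library had 1 input, per the labels. The inputs were not analysed here. bcl2fastq 2.19, Bowtie2 2.1.0, MACS2 2.1.1 and build mm9 are named in the submitters' processing notes. The calling threshold, any role of the inputs in it and the origin of the gene models were not given in the sources used here. Per the file headers, each deposited file holds peak positions with the gene body or 2-kb flank each peak lies in. The fold enrichment column that the authors deposited is 0 in every row with a number, so it was not used, and depth is unknown.

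Rows were reduced to distinct peaks, and width is end minus start. Distance is from a gene start in the files to the nearest base of a peak. Overlap was at least 1 base, shares carry 95% exact (Clopper-Pearson) intervals, and the overlap code was tested on simulated data. The 9 genes and the lists were chosen with earlier results of these data known. List genes were named by widest peak, up to 4 per list and category, and some of these are not reported here. Mnat1 and the neighbours of Calcr and Spry1 were named for their place beside a described gene. RefSeq tables of GRCm38.p6 gave names, gene lengths, gene order and promoters. Alternatives tried were peaks of at least 250 bases, the widest peaks of the longer list, stricter overlap, other windows and gene bodies alone. Values were computed in Python 3.11.15 with pandas 2.3.3, numpy 2.4.6 and scipy 1.17.1, and plotted with matplotlib 3.10.9.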

Additional observations from a re-analysis of the deposited data

How the results depend on the processing

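With 1 library per condition the results are limited by the missing replicates and by unknown depth. Of 38 values recomputed under an alternative, 34 stayed within their bounds (1.5 times for a count, the interval for a share) and 4 moved. Some of the 34 could not have moved, so their number does not measure stability. Shortening the list without pyruvate leaves the gene counts with pyruvate as they were. Every described gene with a row has a located start, so counting located starts alone changes nothing. Without pyruvate, all 7 genes with a row already had a peak, so wider windows could add none. With peaks of at least 250 bases, the genes with a peak near the start were 1 with pyruvate, against 2, and list genes with a peak were 42 with pyruvate and 53 without, against 65 and 90; fewer peaks (5993 and 8832) are left by construction. With a window of 1 kb, 1 gene had a peak near its start with pyruvate. At equal list length, the widest peaks of the list without pyruvate were kept. Six4 and Cxcr4 then had no peak, and 5 of the 9 genes had one in each list. List genes with a peak numbered 65 with pyruvate and 65 without. These were counted apart for each list and were not all the same genes. No paired analysis was possible because each condition has 1 ChIP library. Counting any peak within 2 kb of a start, assigned or not, was added after seeing the data.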
